A study of Mus musculus with 8 samples.

Results

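The genes of blood coagulation, fibrinolysis and complement were examined in BMEL cells, a bipotential liver progenitor line derived from mouse embryos, kept in 3 media. A list of 46 genes was taken, and probes were assigned to them by the RefSeq accession in the scanner files. All 46 genes were on the array, with 61 probes, out of 20660 genes that could be named. RNA from cells in the media labelled NoRX, CM and DIFF was hybridised to 8 one-colour arrays of 1 slide, with n = 3, 3 and 2 arrays. The labels state no composition for any of the media and do not expand these names, and give no time in culture; the series title speaks of media conditioned by human amniotic epithelial cells. All arrays come from 1 cell line and carry no other allele or agent in the labels. Nothing says that replicates were separate cultures, so p-values measure the spread between these arrays, which may be technical, and one label numbers both DIFF arrays as replicate 1.

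Coagulation runs as a chain of proteases. The contact system (F12, Klkb1, Kng1) and tissue factor (F3) with F7 both lead to F10 and its cofactor F5, which turn prothrombin (F2) into thrombin. Thrombin then cuts fibrinogen, a protein built from the products of Fga, Fgb and Fgg, into fibrin. Antithrombin and protein C hold the chain back, and plasmin dissolves the clot. Complement is a parallel chain of plasma proteases in which the classical, lectin and alternative routes meet at C3 and end in a pore made of C5 to C9, with inhibitors in plasma and on cell surfaces. In the adult, hepatocytes make most of the plasma proteins of both systems, and they switch these genes on as they mature from progenitors.

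Values are log2 processed signals minus the 75th percentile of the same array, so that 0 is that percentile and 1 unit is a factor of 2. Levels are compared between arrays for 1 probe, never between probes, although the marker sums below add the levels of several probes. A gene was tested when its probe was well above background, by the scanner software's own mark, on at least 2 of the 8 arrays. Differences carry the standard error of limma, and a gene is called higher or lower when its Benjamini-Hochberg adjusted p over all 14025 tested genes is below 0.05. The share of spots well above background was 50.8% to 53.5% on 7 arrays and 46.4% on DIFF replicate 2, which also had 1159 spots of uneven local background against 3 to 90 elsewhere. Spots of F9, Fgb, Cd55, C1ra, Cfd, F13b, Vtn and a second Fga probe lay in such uneven patches on 1 or more arrays. Slide row 1 held the NoRX arrays with CM replicate 1, and row 2 held CM replicates 2 and 3 with both DIFF arrays.

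The labelled cell type was checked against 12 progenitor markers, of which 11 were well above background on all NoRX arrays and 1, Dlk1, on none. Their summed level, linear and relative to the 75th percentile, was 1626 to 1728 in NoRX, 1228 to 1324 in CM and 1077 to 1356 in DIFF. That sum came mainly from Krt8, Krt18 and Krt19 and does not show the other markers. Of 11 tested progenitor markers, 1 was higher in DIFF than in NoRX, Afp (4.56-fold). Lower were 8, most of all Prom1 (7.92-fold), Epcam (3.59-fold) and Sox9 (3.12-fold). Of all tested genes 14.0% were higher and 28.1% lower. The summed level of 8 hepatocyte markers was 2.53 to 2.94 in NoRX, 3.17 to 4.44 in CM and 122 to 158 in DIFF. Of these 8 markers, 5 were called higher in DIFF than in NoRX (Alb, Apoa1, Ttr, Tat and Cps1), G6pc (-0.13) and Cyp2e1 (-0.46) were not called, and Asgr1 was well above background on the CM arrays alone. The summed level in DIFF came mainly from Alb, Apoa1 and Ttr, and that in CM mainly from Ttr. In CM against NoRX 3 of the 8 were called higher and 0 lower, beside 26.9% and 25.3% of all tested genes. These were Alb (9.76-fold), Asgr1 (at least 15.3-fold) and Apoa1, which was well above background on 1 CM array and no NoRX array. The part of these markers in the results below was not tested. In RNA from whole cultures, fewer cells of a type and less RNA per cell cannot be told apart. The endothelial markers Tek, Tie1 and Emcn, the macrophage markers Adgre1 and Lyz2 and the platelet markers Pf4 and Ppbp were well above background on no array. The summed level of 8 measured macrophage and leukocyte markers was 17.1 to 18.7 in NoRX, 21.6 to 22.5 in CM and 10.8 to 13.2 in DIFF.

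The number of the 46 genes well above background on all arrays of a group was 20 in NoRX, 23 in CM and 27 in DIFF, and the number well above background on none was 21, 15 and 14. DIFF has 2 arrays, so that all of them pass more easily. Any 2 arrays of NoRX shared 20 to 22 detected genes and any 2 of CM 23 to 25. Of all 20660 genes, 62.3% were well above background on all arrays in NoRX, 62.6% in CM and 59.9% in DIFF. In all, 32 genes could be tested, and 19 were well above background on all 8 arrays. The other 14 were F8, F11, Klkb1, F7, F13b, Plg, Plau, Vtn, C2, Masp2, C6, C8a, C8b and C9. Of these, F11 and C2 were well above background on 1 DIFF array and C8a on 1 CM array. Plasminogen (Plg), the zymogen of plasmin, and its activator urokinase (Plau) were well above background on no array, as were factor VII and the terminal complement genes C6, C8b and C9.

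In CM against NoRX 18 of the 32 tested genes were called, 10 higher and 8 lower, where 52.2% of all tested genes were called (26.9% higher and 25.3% lower). That share is close to the background, and the count is no result about these genes. In DIFF against NoRX 20 were called, 14 higher and 6 lower, against a background of 42.1% (14.0% higher and 28.1% lower). In DIFF against CM 18 were called, 13 higher and 5 lower, against 59.2% (23.6% higher and 35.6% lower). The median log2 difference of the 32 genes was 0.25, 0.43 and 0.07 in the 3 comparisons, beside 0.01, -0.10 and -0.11 for all tested genes. Genes that passed the filter only through 1 group had to be higher there, as Serpind1 did through DIFF and Masp1 through CM, and their p-values are no independent support. Among the 19 genes well above background on all arrays, 6 were higher and 6 lower in DIFF than in NoRX, beside 14.3% higher and 29.5% lower of the 12011 genes measured likewise. For these 19 genes the median log2 difference was -0.15, -0.13 and 0.03 in the 3 comparisons. Any 2 of the comparisons share a group of arrays and are not independent.

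Differences of at least 2-fold past the threshold were found for 9 genes higher and 3 lower in CM against NoRX (background 6.20% and 5.18%). In DIFF against NoRX there were 12 higher and 2 lower (background 4.61% and 7.87%), and in DIFF against CM 10 higher and 3 lower (background 8.00% and 12.3%). The 12 include Fga, Fgb, Fgg and Serpind1, well above background on no NoRX array, and C1ra, whose size rests on DIFF replicate 2. Among the 19 genes well above background on all arrays, 5 were higher and 2 lower in CM against NoRX (background 4.22% and 4.11%). For them DIFF against NoRX gave 4 and 2 (3.47% and 6.08%), and DIFF against CM 3 and 3 (6.76% and 9.74%). The arrays of the groups did not overlap for 23, 23 and 19 of the 32 genes, where 71.0%, 57.0% and 68.3% of all tested genes did not overlap. The split of calls over all genes depended on the scale: with the median of each array in place of the 75th percentile, 2502 were higher and 2061 lower in DIFF against NoRX, beside 1964 and 3947. In DIFF against CM these were 4070 and 3095, beside 3315 and 4988. The median of all genes then lay at 0.07 in both DIFF comparisons. On that scale the genes described here gave 15 higher and 5 lower in DIFF against NoRX and 13 higher and 4 lower in DIFF against CM. With the slide row as a block 15, 18 and 19 of the 32 genes were called in the 3 comparisons, beside 34.2%, 20.0% and 53.2% of all tested genes. Within row 1 alone 20 were called in CM against NoRX (54.9% of all tested genes), and within row 2 alone 18 in DIFF against CM (44.1%), while DIFF and NoRX share no row.

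**Figure D1:**
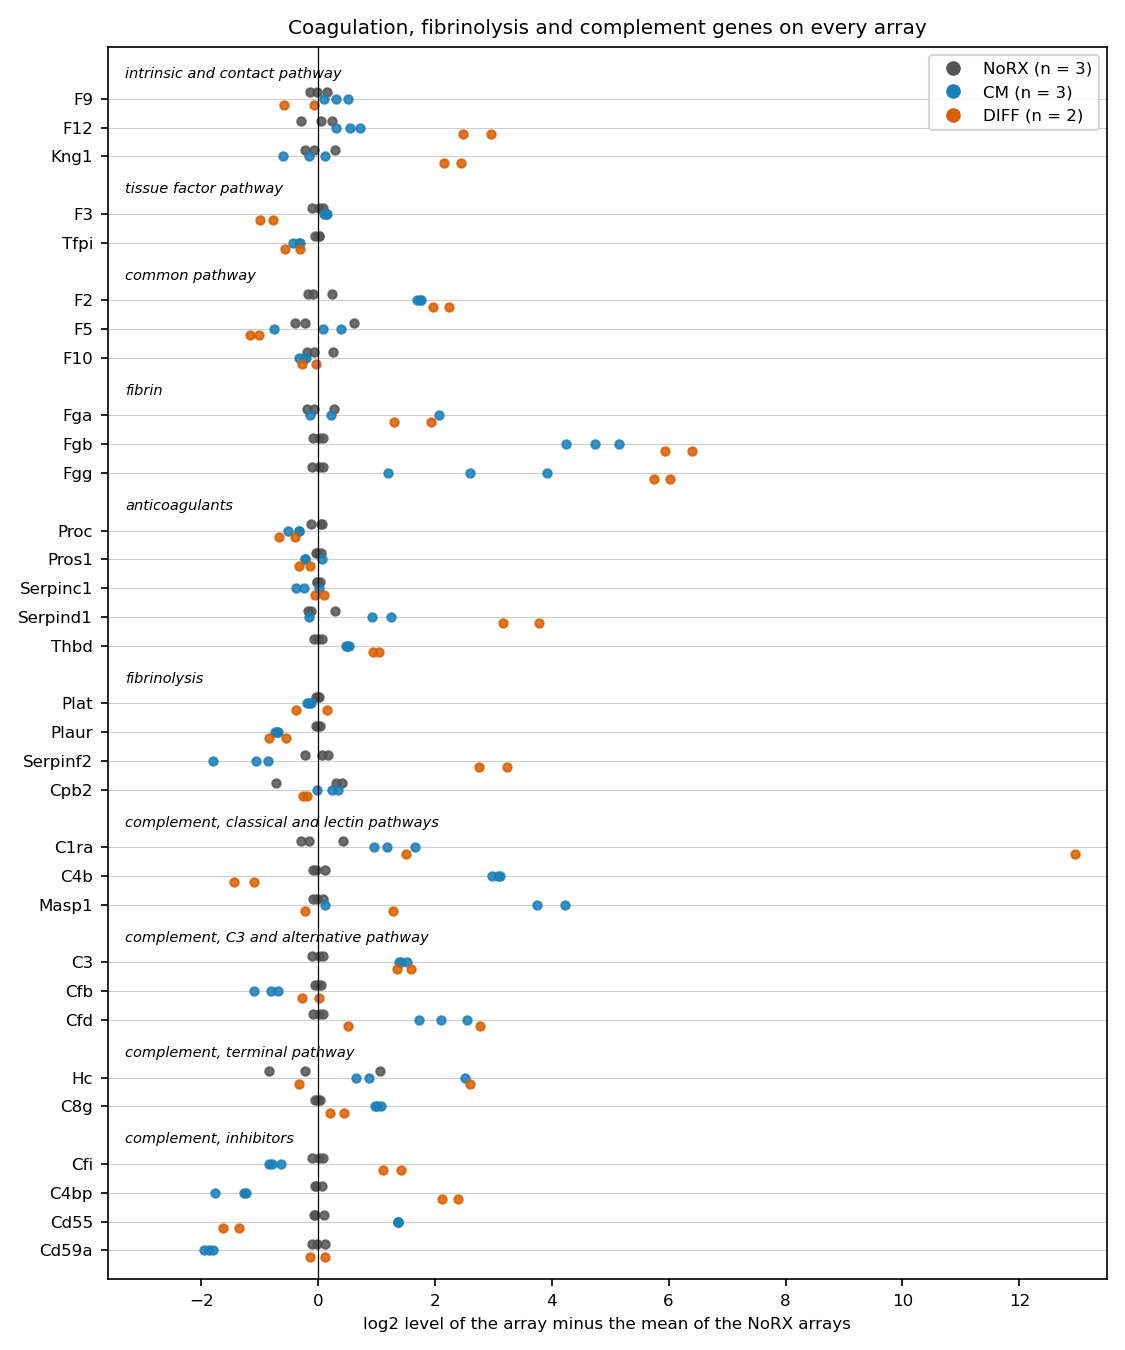
Each point is 1 array: the log2 level minus the mean of the 3 NoRX arrays (horizontal axis) for the 32 tested genes, grouped by role, in NoRX (grey), CM (blue) and DIFF (orange). Fgb and Fgg lie far to the right in DIFF, Serpinf2 and C4bp lie left of 0 in CM and right of it in DIFF, and 1 DIFF array of C1ra stands alone near the right edge.

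**Figure D2:**
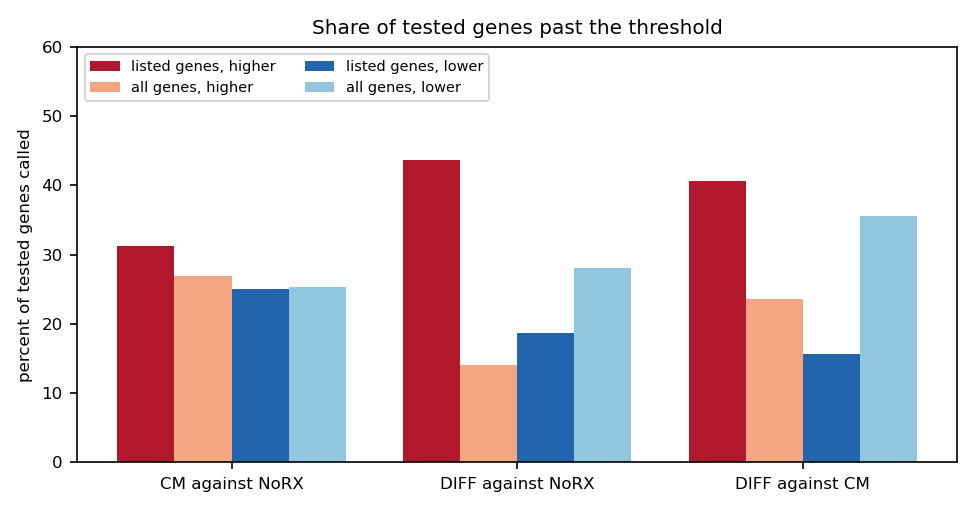
Bars give the percent of tested genes called higher (red) or lower (blue) in each comparison, dark for the 32 genes described here and pale for all 14025. The dark and pale bars are close in CM against NoRX, and in the DIFF comparisons the dark red bars stand above the pale red ones.

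The contact and intrinsic pathway was marked by F12 and Kng1. F12 encodes factor XII, the protease that starts contact activation. Its log2 level was -4.63, -5.17 and -4.81 in NoRX, -4.32, -4.56 and -4.16 in CM, and -1.91 and -2.38 in DIFF. Both DIFF arrays lay above every other array. F12 was 6.60-fold higher in DIFF than in NoRX (log2 difference 2.72 ± 0.27, adjusted p = 1.15e-05) and 4.59-fold higher than in CM (adjusted p = 3.67e-05), while CM against NoRX gave 0.52 ± 0.25 (adjusted p = 0.096). Kng1 encodes kininogen, which carries factor XI and prekallikrein and releases bradykinin. Its level was -4.88, -5.04 and -4.52 in NoRX, -4.96, -4.70 and -5.42 in CM, and -2.36 and -2.66 in DIFF. NoRX and CM overlapped, and DIFF stood above both, by 2.30 ± 0.31 over NoRX (4.93-fold, adjusted p = 0.000127) and 2.51 ± 0.31 over CM (5.71-fold, adjusted p = 3.68e-05). F12 was well above background on 1 of 3 NoRX arrays and Kng1 on 1 of 3 NoRX and 1 of 3 CM arrays. A second Kng1 probe, assigned by another RefSeq transcript, was well above background on no array and was not tested. Its levels were -7.05, -7.14 and -6.96 in NoRX and -7.42 and -6.57 in DIFF, so the Kng1 differences rest on 1 probe. The Kng1 signal may include its near relative Kng2. F9, the gene of hemophilia B, was well above background on all arrays, and its difference of -0.63 ± 0.20 between DIFF and CM (adjusted p = 0.0199) was lost in 6 of 23 alternative settings, among them the median scale (adjusted p = 0.0842), and without DIFF replicate 2 (-0.38, adjusted p = 0.123) and without CM replicate 3 (-0.53, adjusted p = 0.076). F11, which encodes factor XI, was untested, with DIFF levels of -3.77 and -4.50 and levels of -6.99 to -5.74 on the other arrays.

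Of the tissue factor pathway, F3 and the inhibitor gene Tfpi could be tested. Both were lower in DIFF than in NoRX, where 28.1% of all tested genes were lower. F3 encodes tissue factor, the membrane receptor that starts clotting when it meets factor VII. Its level was 5.69, 5.75 and 5.58 in NoRX, 5.77, 5.81 and 5.83 in CM, and 4.91 and 4.68 in DIFF. The DIFF arrays were below all others. F3 differed by -0.88 ± 0.09 from NoRX (1.84-fold lower, adjusted p = 9.23e-06) and by -1.01 ± 0.09 from CM (2.02-fold lower, adjusted p = 1.67e-06). A second F3 probe differed by -0.93 and -1.05 in the same comparisons. Tfpi encodes the inhibitor of tissue factor with factor VII. It fell by 0.35 ± 0.08 in CM (adjusted p = 0.00271) and by 0.44 ± 0.09 in DIFF (adjusted p = 0.00186) against NoRX, and the latter was lost on the median scale (-0.27, adjusted p = 0.161). All 3 probes of Tfpi passed the threshold against NoRX in both media.

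Prothrombin RNA rose in both media. The level of F2 was -0.95, -0.63 and -1.03 in NoRX, 0.90, 0.88 and 0.82 in CM, and 1.37 and 1.09 in DIFF. The NoRX arrays lay apart from the rest. F2 was 3.33-fold higher in CM (1.74 ± 0.11, adjusted p = 4.18e-07) and 4.29-fold higher in DIFF (2.10 ± 0.12, adjusted p = 1.48e-07) than in NoRX. Its smaller difference between DIFF and CM (0.36 ± 0.12, adjusted p = 0.0264) was lost in 9 of 23 alternative settings, among them leaving out CM replicate 2 (0.37), CM replicate 3 (0.34) or DIFF replicate 1 (0.23). F5, the cofactor of F10, gave -1.08 ± 0.40 in DIFF against NoRX (adjusted p = 0.051) and -0.997 ± 0.40 against CM (adjusted p = 0.053), and passed the threshold in some settings. With normexp background correction its sign turned, to 0.06 and 0.21, and neither was called. F10, the protease that makes thrombin, was not called with the probe used, which differed by -0.26 to 0.10. A dimmer second probe of F10 gave -2.08 in DIFF against NoRX (adjusted p = 0.00395) and -1.82 against CM (adjusted p = 0.00554), so the probes disagreed.

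Fibrinogen showed some of the widest changes. Its 3 genes lie side by side on chromosome 3 with no other protein-coding gene between them in the RefSeq annotation (GRCm38.p6). Because all 3 were called higher in DIFF than in NoRX, the 250 bases before each start are shown, 5′ to 3′ on the gene's strand, from RefSeq on that build. Capitals mark matches, on either strand, to the C/EBP motif TTGCNNAA and the STAT motif TTCNNNGAA, and to partial sites of HNF1 (GTTAAT) and of the glucocorticoid receptor (AGAACA), each a single arm of the paired full site. No match overlapped another in these windows. The windows are chr3:83025903-83026152 (plus strand) for Fga, chr3:83049864-83050113 (minus strand) for Fgb and chr3:83007474-83007723 (plus strand) for Fgg.
Fga: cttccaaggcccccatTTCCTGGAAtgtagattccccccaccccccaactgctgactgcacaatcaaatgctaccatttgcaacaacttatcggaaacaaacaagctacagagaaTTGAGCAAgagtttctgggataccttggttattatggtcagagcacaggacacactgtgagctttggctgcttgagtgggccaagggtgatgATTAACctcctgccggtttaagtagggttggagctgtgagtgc
Fgb: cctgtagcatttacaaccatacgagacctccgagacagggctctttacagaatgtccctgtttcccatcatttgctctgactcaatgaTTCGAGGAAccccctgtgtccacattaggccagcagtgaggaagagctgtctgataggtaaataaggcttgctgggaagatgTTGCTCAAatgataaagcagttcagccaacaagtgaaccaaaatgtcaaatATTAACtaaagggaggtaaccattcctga
Fgg: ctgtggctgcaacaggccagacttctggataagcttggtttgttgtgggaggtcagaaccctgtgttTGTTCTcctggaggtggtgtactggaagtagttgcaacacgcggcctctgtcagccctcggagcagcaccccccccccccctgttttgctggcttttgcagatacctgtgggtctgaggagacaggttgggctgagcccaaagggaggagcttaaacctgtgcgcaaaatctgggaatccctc

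The windows of Fga and Fgb each held 1 C/EBP match, 1 STAT match and 1 HNF1 match. The window of Fgg held 1 glucocorticoid receptor match and none of the letters of the other motifs. Of all 32851 promoters in the table, 9.56% held a C/EBP match, 7.02% a STAT match, 6.43% an HNF1 match and 16.1% a glucocorticoid receptor match within the same length. Of the genes described here, 35 had a promoter in the table, and 8, 6, 9 and 9 of them held these motifs (22.9%, 17.1%, 25.7% and 25.7%). The HNF4 motif CAAAGTCC was in 1.2% of all promoters and in 0 of the 35. A match is a description of the sequence and not a binding site.

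The level of Fgb was -7.22, -7.32 and -7.15 in NoRX, -2.49, -2.98 and -2.07 in CM, and -0.83 and -1.29 in DIFF. The groups formed 3 separate levels, although no NoRX array was well above background. For a gene that all arrays of a group measure above background and no array of the other does, only a lower bound of the fold can be stated, computed against the dimmest signal that still counted as well above background on the dim arrays. Fgb was at least 6.73-fold higher in CM (adjusted p = 1.56e-07) and at least 18.5-fold higher in DIFF (adjusted p = 2.57e-08) than in NoRX, and 2.75-fold higher in DIFF than in CM (1.46 ± 0.30, adjusted p = 0.00136). Its spot on DIFF replicate 2 lay in an uneven patch, and the other DIFF array was the higher one.

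The level of Fgg was -7.30, -7.41 and -7.24 in NoRX, -3.40, -6.11 and -4.71 in CM, and -1.29 and -1.57 in DIFF. The CM arrays were widely spread, and 2 of the 3 were well above background. Fgg was at least 14.3-fold higher in DIFF than in NoRX (adjusted p = 1.71e-05) and 9.91-fold higher than in CM (3.31 ± 0.62, adjusted p = 0.0008). With array weights, which gave each DIFF array 0.157, the differences of DIFF from CM were 1.53 for Fgb (adjusted p = 0.113) and 3.53 for Fgg (adjusted p = 0.131) and no longer passed. The fitted difference of CM from NoRX in Fgg was 2.58 ± 0.56 (adjusted p = 0.00247), whose size is not an estimate because no NoRX array was well above background, and 0.57 (adjusted p = 0.054) with normexp background correction. With that correction Fgb still passed the threshold, at 1.62 in CM and 2.89 in DIFF against NoRX. The DIFF against NoRX differences of F12, Kng1 and 2 genes described below, Serpind1 and Serpinf2, likewise shrank to 1.51, 1.25, 1.22 and 1.67 and stayed past it.

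Fga was less settled. The probe used had levels of -5.20, -5.54 and -5.66 in NoRX, -3.39, -5.60 and -5.23 in CM, and -3.53 and -4.17 in DIFF. CM replicate 1 was as high as DIFF, and the other CM arrays lay with NoRX. Fga was at least 2.47-fold higher in DIFF than in NoRX (1.62 ± 0.58, adjusted p = 0.0429), a call that was lost in 9 of 21 alternative settings. Without NoRX replicate 1, 2 or 3 the adjusted p was 0.0556, 0.0815 and 0.09, and without DIFF replicate 1 or 2 it was 0.171 and 0.0586. A second, dimmer probe of Fga gave 4.85 in DIFF against NoRX (adjusted p = 0.00297) and 3.60 against CM (adjusted p = 0.0105), with its spot on DIFF replicate 2 in an uneven patch. On that probe CM replicate 2 was high, at -3.15, and CM replicates 1 and 3 were low, at -6.99 and -7.52. The probes thus named different CM arrays as high. F13b, a subunit of the factor that crosslinks fibrin, was well above background on no array.

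**Figure D3:**
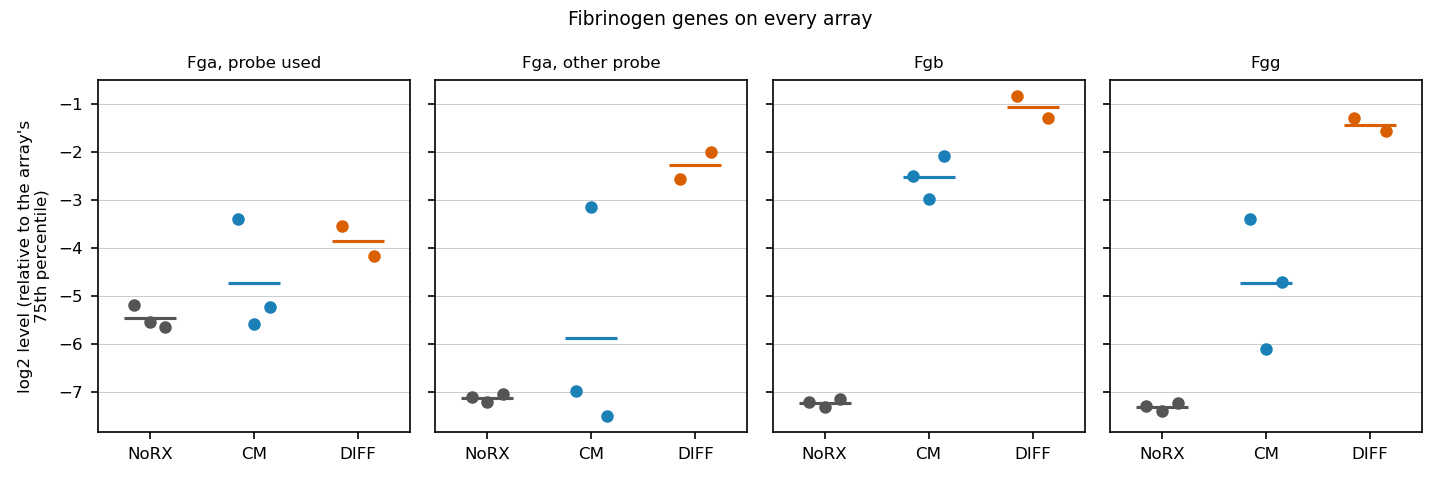
Log2 level of the fibrinogen probes on each array (points) with the group mean (line), relative to the array's 75th percentile, in NoRX, CM and DIFF. Fgb rises in steps from about -7.23 in NoRX to -2.52 in CM and -1.06 in DIFF, while for Fga the 2 probes put different CM arrays high.

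Among the anticoagulants, Thbd was higher in both media than in NoRX, and Serpind1 was detected in DIFF alone. Serpind1 encodes heparin cofactor II, a thrombin inhibitor. Its level was -7.05, -6.58 and -6.99 in NoRX, -5.62, -7.02 and -5.95 in CM, and -3.10 and -3.70 in DIFF. It was well above background on the DIFF arrays alone, through which it passed the filter, at least 3.65-fold above NoRX (adjusted p = 0.000467) and at least 4.11-fold above CM (adjusted p = 0.00129). With array weights the fitted differences were 3.43 and 2.93, beside 3.48 and 2.80, and neither passed (adjusted p = 0.11 and 0.122). Thbd encodes thrombomodulin, the surface receptor that turns thrombin toward protein C. Its level ranged from 0.48 to 0.63 in NoRX, 1.03 to 1.09 in CM and 1.51 to 1.60 in DIFF. These were 3 steps without overlap, of 0.50 ± 0.07 from NoRX to CM (adjusted p = 0.000131) and 0.49 ± 0.08 from CM to DIFF (adjusted p = 0.000255). Proc, which encodes protein C itself, fell by 0.38 ± 0.10 in CM (adjusted p = 0.00623) and by 0.54 ± 0.11 in DIFF (adjusted p = 0.00211) against NoRX. With the slide row as a block neither passed (adjusted p = 0.121 and 0.156), and with array weights the second did not (adjusted p = 0.128). Pros1, the protein C cofactor, and Serpinc1, which encodes antithrombin, were measured on all arrays and passed in no comparison, with differences of -0.23 to 0.23.

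In fibrinolysis the antiplasmin gene moved most. Serpinf2 encodes alpha-2-antiplasmin, the main inhibitor of plasmin in plasma. Its level was -4.41, -4.52 and -4.81 in NoRX, -5.64, -6.38 and -5.44 in CM, and -1.34 and -1.82 in DIFF. The 3 groups did not overlap, with CM lowest and DIFF highest. Serpinf2 was 7.96-fold higher in DIFF than in NoRX (2.99 ± 0.34, adjusted p = 3.04e-05) and at least 12.9-fold higher than in CM (adjusted p = 1.00e-06), where no array was well above background. In CM against NoRX the fitted fall was -1.24 ± 0.30 (adjusted p = 0.00519), against CM signals that were not above background, with 2 of 3 NoRX arrays above it. It was lost with normexp correction (-0.37, adjusted p = 0.0769) and with the slide row as a block (-1.06, adjusted p = 0.0862). Plaur encodes the urokinase receptor. It fell 1.63-fold in CM (-0.70 ± 0.08, adjusted p = 2.33e-05) and 1.62-fold in DIFF (-0.70 ± 0.09, adjusted p = 6.36e-05), and the DIFF arrays lay on both sides of the CM arrays. Plat, which encodes tissue plasminogen activator, was not called. Its DIFF levels of 1.75 and 1.21 lay above and below the NoRX range of 1.57 to 1.61. Without DIFF replicate 1 Plat passed as lower in DIFF than in NoRX (-0.38), and without DIFF replicate 2 as higher (0.16). Cpb2, which encodes a carboxypeptidase that shields fibrin from plasmin, was well above background on 3 arrays and not called.

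The classical pathway of complement was led by C4b, which encodes the C4 protein that forms part of the C3 convertase. Its level was -0.67, -0.47 and -0.63 in NoRX, 2.39, 2.53 and 2.49 in CM, and -1.69 and -2.03 in DIFF. The groups were far apart, with CM on top and DIFF at the bottom. C4b was 8.34-fold higher in CM than in NoRX (3.06 ± 0.10, adjusted p = 4.62e-09), 2.41-fold lower in DIFF than in NoRX (-1.27 ± 0.11, adjusted p = 3.75e-06) and 20.1-fold lower in DIFF than in CM (-4.33 ± 0.11, adjusted p = 1.15e-10). The signal may include its near-identical copy C4a.

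C1ra encodes the C1r protease, which starts the classical route. The probe used had levels of -5.45, -4.73 and -5.32 in NoRX, -3.99, -4.20 and -3.50 in CM, and -3.66 and 7.79 in DIFF. DIFF replicate 2, whose spot lay in an uneven patch, stood alone, and DIFF replicate 1 lay among the CM arrays. The fit gave 7.23 ± 2.26 in DIFF against NoRX (adjusted p = 0.0241) and 5.97 ± 2.26 against CM (adjusted p = 0.0406), the latter lost in 10 of 22 alternative settings. Without DIFF replicate 2 the difference from CM was 0.24 (adjusted p = 0.626), and the difference of CM from NoRX, 1.27, then passed the threshold (adjusted p = 0.00351, against 0.637 with all arrays). The other probe, with no spot in a patch, had levels of -7.12, -6.10 and -6.96 in NoRX, -4.16, -4.35 and -4.00 in CM, and -4.28 and -4.38 in DIFF. On it C1ra was higher in CM by 2.56 (adjusted p = 0.000181) and in DIFF by 2.40 (adjusted p = 0.000825) than in NoRX, and DIFF differed from CM by -0.16 (adjusted p = 0.765). Its relative C1rb may share the signal.

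**Figure D4:**
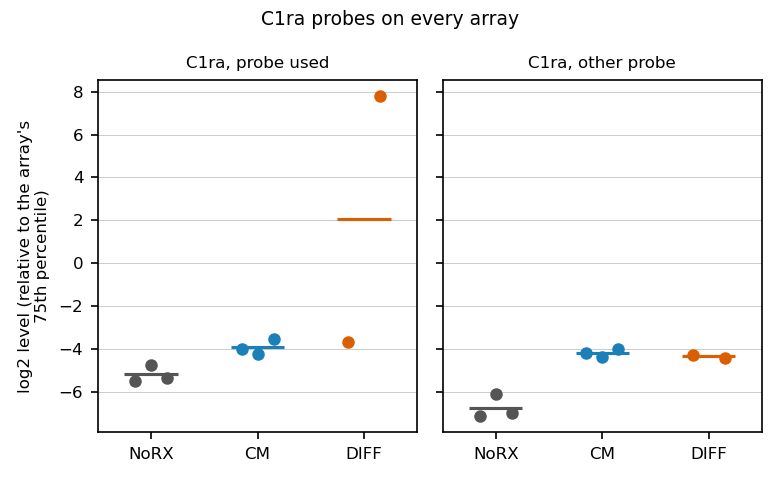
Log2 level of the C1ra probes on each array (points) with the group mean (line), relative to the array's 75th percentile. On the probe used, DIFF replicate 2 lies at 7.79 and DIFF replicate 1 at -3.66, and on the other probe both DIFF arrays lie within the range of the CM arrays or next to it.

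Masp1, a protease of the lectin route, was split within CM. Its level was -7.02, -7.09 and -6.92 in NoRX, -6.89, -3.26 and -2.78 in CM, and -7.23 and -5.73 in DIFF. CM replicate 1, which shares slide row 1 with NoRX, was at the NoRX level, and CM replicates 2 and 3 in row 2 were high. Masp1 was well above background on those 2 CM arrays alone, through which it passed the filter, so its size against NoRX is not an estimate. The fitted difference of CM from NoRX was 2.70 ± 0.94 (adjusted p = 0.0317) and became 0.12 (adjusted p = 0.929) with the slide row as a block and 0.12 (adjusted p = 0.881) within row 1. It was also lost when any NoRX array was left out (adjusted p = 0.0591, 0.0603 and 0.0555) and without CM replicate 2 (2.18, adjusted p = 0.121) or CM replicate 3 (1.93, adjusted p = 0.143).

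C3 rose in both media. It encodes the protein at which all complement routes meet, and its RefSeq promoter is shown for its C/EBP match. The window of 250 bases before its start, chr17:57228137-57228386 on the minus strand of GRCm38.p6, holds that 1 match, in capitals, and no other motif searched. The 8 listed genes with a C/EBP match were C3, Fga, Fgb, F9, F11, Klkb1, C9 and Plaur. Of these, Plaur fell in both media, F9 was not called against NoRX, and F11, Klkb1 and C9 could not be tested. A link between the match and the levels was not tested.
C3: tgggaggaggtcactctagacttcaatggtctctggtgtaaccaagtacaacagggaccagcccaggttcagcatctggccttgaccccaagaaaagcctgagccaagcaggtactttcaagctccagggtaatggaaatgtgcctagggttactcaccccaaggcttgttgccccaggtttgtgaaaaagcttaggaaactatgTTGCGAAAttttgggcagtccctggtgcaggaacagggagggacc

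The level of C3 was -0.23, -0.29 and -0.40 in NoRX, 1.22, 1.11 and 1.07 in CM, and 1.28 and 1.04 in DIFF. The CM range lay inside the DIFF range, and both were above NoRX. C3 was 2.72-fold higher in CM (1.44 ± 0.09, adjusted p = 2.78e-07) and 2.77-fold higher in DIFF (1.47 ± 0.10, adjusted p = 3.72e-07) than in NoRX, and DIFF differed from CM by 0.03 ± 0.10 (adjusted p = 0.828). A second probe gave 0.84 and 0.99 against NoRX. Cfb encodes factor B, which joins C3b in the alternative convertase. It fell 1.81-fold in CM against NoRX (-0.86 ± 0.11, adjusted p = 6.23e-05), from a range of 1.45 to 1.56 to one of 0.41 to 0.82, and the DIFF levels were 1.51 and 1.23. DIFF was 1.66-fold above CM (0.73 ± 0.12, adjusted p = 0.000339), which narrowly missed the threshold with array weights (adjusted p = 0.0523). Cfd encodes factor D, the protease that cuts factor B. Its level was -7.27, -7.38 and -7.21 in NoRX, -5.18, -4.74 and -5.55 in CM, and -4.51 and -6.77 in DIFF, with both DIFF spots in uneven patches. It was well above background on 1 CM, 1 DIFF and no NoRX array, and its call in CM (2.13 ± 0.64, adjusted p = 0.0153) was lost with normexp correction (0.29, adjusted p = 0.363), with the slide row as a block (adjusted p = 0.0976) and without CM replicate 2 (1.92, adjusted p = 0.0663).

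Of the terminal pathway, C8g was the only gene measured on all arrays. It encodes the gamma chain of C8, a lipocalin. Its level was -0.83, -0.78 and -0.75 in NoRX, 0.30, 0.18 and 0.23 in CM, and -0.34 and -0.58 in DIFF. The 3 groups did not overlap, with CM highest. C8g was 2.03-fold higher in CM than in NoRX (1.02 ± 0.09, adjusted p = 3.16e-06) and 1.62-fold lower in DIFF than in CM (-0.70 ± 0.10, adjusted p = 8.66e-05). The smaller rise in DIFF over NoRX (0.33 ± 0.10, adjusted p = 0.0191) was lost in 6 of 22 alternative settings, among them without NoRX replicate 1 (0.30, adjusted p = 0.0678) or NoRX replicate 2 (0.33, adjusted p = 0.0552). A second C8g probe gave 0.36 in CM against NoRX and passed in no comparison (adjusted p = 0.0737, 0.33 and 0.529). Hc, which encodes C5, was well above background on 2 arrays, CM replicate 1 and DIFF replicate 2 having the highest levels (-3.71 and -3.62), and was not called.

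Of the 4 complement inhibitors, 4 passed in CM against NoRX (1 higher, 3 lower), 3 in DIFF against NoRX (2 higher, 1 lower) and 4 in DIFF against CM (3 higher, 1 lower), where 52.2%, 42.1% and 59.2% of all tested genes passed. With 4 genes, nothing particular to the group is read from these counts. C4bp encodes the alpha chain of the C4b-binding protein, a plasma inhibitor of the classical route. Its level was 0.93, 0.83 and 0.81 in NoRX, -0.37, -0.90 and -0.41 in CM, and 3.25 and 2.98 in DIFF. The groups were well separated, with CM lowest and DIFF highest. C4bp was 2.68-fold lower in CM (-1.42 ± 0.13, adjusted p = 6.18e-06) and 4.77-fold higher in DIFF (2.26 ± 0.15, adjusted p = 3.14e-07) than in NoRX, and 12.8-fold higher in DIFF than in CM (3.68 ± 0.15, adjusted p = 3.38e-09).

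Cfi encodes factor I, the protease that cuts C3b and C4b with C4b-binding protein as a cofactor. Its level was -1.69, -1.63 and -1.81 in NoRX, -2.50, -2.55 and -2.35 in CM, and -0.30 and -0.60 in DIFF. The order of the groups was that of C4bp. Cfi was 1.69-fold lower in CM (-0.76 ± 0.12, adjusted p = 0.000282) and 2.40-fold higher in DIFF (1.26 ± 0.13, adjusted p = 1.60e-05) than in NoRX, and 4.06-fold higher in DIFF than in CM (2.02 ± 0.13, adjusted p = 1.94e-07).

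The inhibitors anchored in the cell membrane had other orders. Cd55 encodes decay-accelerating factor, which takes the C3 convertases apart. Its level was 4.18, 4.34 and 4.16 in NoRX, 5.60, 5.60 and 5.60 in CM, and 2.88 and 2.61 in DIFF. CM stood highest and DIFF lowest, with no overlap. Cd55 was 2.59-fold higher in CM (1.37 ± 0.08, adjusted p = 2.40e-07) and 2.80-fold lower in DIFF (-1.48 ± 0.09, adjusted p = 1.93e-07) than in NoRX, and 7.24-fold lower in DIFF than in CM (-2.86 ± 0.09, adjusted p = 5.53e-10). Its spot on DIFF replicate 2 lay in an uneven patch, and DIFF replicate 1 alone gave the same direction. Cd59a encodes the surface inhibitor of pore formation. Its level was 1.22, 1.36 and 1.14 in NoRX, -0.63, -0.72 and -0.57 in CM, and 1.35 and 1.09 in DIFF. CM alone was low, at -1.88 ± 0.09 from NoRX (3.67-fold lower, adjusted p = 5.73e-08), and DIFF was 3.63-fold above CM (1.86 ± 0.10, adjusted p = 4.84e-08). DIFF overlapped NoRX (-0.02 ± 0.10, adjusted p = 0.917). Near relatives, Cd55b and Cd59b, may share these signals.

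**Figure D5:**
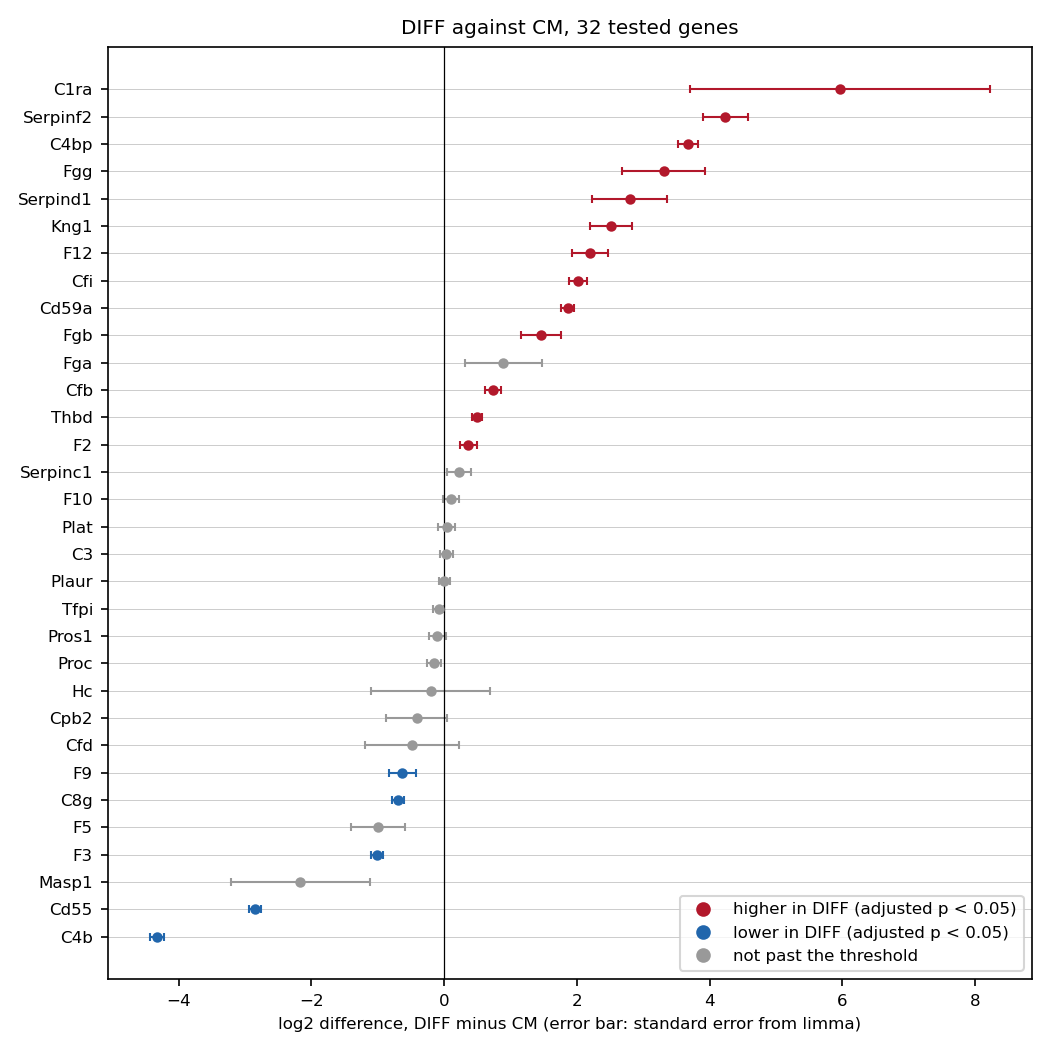
Log2 difference of DIFF minus CM for the 32 tested genes (points) with the standard error from limma (bars), sorted by size and coloured by call. C1ra, Serpinf2, C4bp and Fgg lie above 3, C4b and Cd55 are the lowest called genes at -4.33 and -2.86, and the bar of C1ra is the widest, at 2.26 to each side.

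Several of these genes are neighbours in the RefSeq annotation. Cd55 and C4bp lie on chromosome 1 with 1 protein-coding gene between them, and their differences of DIFF from CM were -2.86 and 3.68. C4b and Cfb lie on chromosome 17 with 5 genes between them, and their differences of CM from NoRX were 3.06 and -0.86. Kng1 and Masp1 lie on chromosome 16 with 5 genes between them, and their differences of DIFF from CM were 2.51 and -2.17, the latter not called (adjusted p = 0.0973). The pairs F7 and F10, F11 and Klkb1, Cfb and C2, and C8b and C8a are direct neighbours, and each pair holds at least 1 gene that could not be tested.

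Genes of the same systems outside the list were counted in the same fit. The counts of this and the next lists stand beside 26.9% higher and 25.3% lower of all tested genes in CM against NoRX and 14.0% and 28.1% in DIFF against NoRX, and nothing particular to a list is read from them. Of 4 tested genes among 8 receptors of thrombin and protein C and anticoagulant surface genes, 1 was higher and 3 were lower in CM than in NoRX, and 4 were lower in DIFF than in NoRX. Procr, the endothelial protein C receptor gene, was higher in CM by 2.21 ± 0.08 (adjusted p = 6.27e-09) and in DIFF fell by 1.00 ± 0.09 (adjusted p = 3.02e-06). F2r, which encodes the thrombin receptor PAR1, fell by 1.23 ± 0.07 in CM and by 1.12 ± 0.08 in DIFF (adjusted p = 2.02e-07 and 6.18e-07). Of 12 other factors and cofactors, 7 were tested, with 1 higher and 1 lower in CM and 2 higher and 1 lower in DIFF than in NoRX. Vwf, the platelet adhesion factor, fell by 1.46 ± 0.14 in CM (adjusted p = 9.29e-06), and Habp2, which encodes a protease that acts on factor VII, rose by 1.71 ± 0.19 in CM and 1.27 ± 0.21 in DIFF (adjusted p = 2.01e-05 and 0.000483). Fgl1, the fibrinogen-like hepatocyte gene, rose by 2.94 ± 0.60 in DIFF (adjusted p = 0.00232). Of 10 further serpins and receptors, 7 were tested, with 1 higher and none lower in CM, and 1 higher and 2 lower in DIFF than in NoRX, none of them by 2-fold.

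All 8 genes of the vitamin K cycle and factor secretion were tested, with 3 higher and 1 lower in CM and 4 higher and 1 lower in DIFF than in NoRX. The 4 called in CM are close to the 52.2% of all tested genes. Ggcx, the carboxylase that modifies prothrombin and factors VII, IX and X, fell by 0.54 ± 0.10 in CM (adjusted p = 0.000734) and rose by 0.88 ± 0.11 in DIFF (adjusted p = 5.81e-05). Of 12 complement recognition and protease genes on the array, 5 were tested, with 1 higher and 1 lower in CM and 2 higher and 1 lower in DIFF. Fcna, a lectin that binds the Masp proteases, was higher in CM by 1.74 ± 0.14 (adjusted p = 2.05e-06) and in DIFF fell by 3.16 ± 0.16 (adjusted p = 3.08e-08). Of 17 further terminal genes, regulators and receptors, 8 were tested. In CM 1 was higher and 4 were lower than in NoRX, and in DIFF 1 was higher and 5 were lower. Cpn1, the carboxypeptidase that inactivates anaphylatoxins, was higher in CM by 2.51 ± 0.13 (adjusted p = 1.10e-07) and in DIFF fell by 4.01 ± 0.15 (adjusted p = 3.96e-09).

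Of 15 transcription factors known to drive these liver genes, 14 were tested, with 6 higher and 2 lower in CM and 5 higher and 3 lower in DIFF than in NoRX. The 8 called in CM are close to the 52.2% of all tested genes. Foxa1 rose by 1.79 ± 0.07 in CM (adjusted p = 1.16e-08) and Cebpa by 1.08 ± 0.12 (adjusted p = 1.86e-05). In DIFF these genes rose by 0.69 ± 0.08 (adjusted p = 2.83e-05) and 0.75 ± 0.13 (adjusted p = 0.000716). Hnf4a fell by 0.73 ± 0.08 in CM and by 0.54 ± 0.09 in DIFF (adjusted p = 3.13e-05 and 0.000811).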

How the data were processed

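The authors deposited scanner output of Agilent Feature Extraction 11.0.1.1 (version per the submitters' processing notes). Its processed signal is a linear intensity from which background was subtracted within the array, per the file headers. The series table held equal values (largest difference 0). Log2 processed signals were taken minus the 75th percentile of each array's spots that are no controls. Outlier spots were left out and spots of a probe averaged. Of 55681 probes, 27235 matched a RefSeq accession (GRCm38.p6 table) and 28446 did not. The array design used another build, mm9, so probes get no coordinates. Of several probes of a gene (13 of the 46), the one with the highest mean was used. A probe well above background on at least 2 arrays was tested (14025 genes, 30 missing values).

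Tests used limma 3.58.1 in R 4.3.3 (lmFit, eBayes with a trend, two-sided) in 1 fit over 8 arrays, with Benjamini-Hochberg adjustment over all tested genes. The functions were tested on simulated data. The number of arrays limits the precision. Every listed gene is accounted for, with values on every array for genes called with a log2 difference of at least 1 or with only a bound. Other pathway genes are named when called with such a difference in 1 or more comparisons, up to 4 per direction and list, and 1 of them is not reported here. Hnf4a was named outside that rule, after its values were seen. The listed genes, the other lists and the markers were chosen with earlier results of these data known. Uneven patches are spots with at least 5 spots of uneven background within 5 rows and columns. Alternatives were another scale, quantile normalization, normexp background, filters, the mean of probes, array weights, slide row and replicate blocks, left-out patches and left-out arrays.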

Additional observations from a re-analysis of the deposited data

How the results depend on the processing

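Of 96 gene results (32 genes in 3 comparisons), 56 were called, and 38 of these were called under every one of the 24 alternative settings in which they were run. With genes well above background on all 8 arrays, 19 were tested and 12 (DIFF against NoRX) and 11 (DIFF against CM) called. Over all genes, array weights left 2988 (DIFF against NoRX) and 5312 (DIFF against CM) calls, and the slide row as a block 4796 (CM against NoRX) and 2801 (DIFF against NoRX). Leaving out 1 array gave 16 to 22, 18 to 22 and 15 to 21 called genes of the list in CM against NoRX, DIFF against NoRX and DIFF against CM, and 6108 to 9309, 4730 to 8488 and 7340 to 9787 of all genes. In DIFF against NoRX, 1754 genes were higher and 6734 lower when DIFF replicate 1 was left out, and 3768 and 3367 when DIFF replicate 2 was. Signs turned in 1 or more settings in 26 of the 96 gene results, of which 1 (F9) was called; those past the threshold before or after were F9 (DIFF against CM, normexp, 0.0086), F10 (DIFF against CM, mean of probes, -0.86), Masp1 (DIFF against NoRX, slide row as a block, -3.34), Plat (-0.38 from NoRX and -0.23 from CM without DIFF replicate 1, but 0.16 and 0.31 without DIFF replicate 2) and Plaur (DIFF against CM, 0.15 without DIFF replicate 2 but -0.14 without DIFF replicate 1). The cause was not tested. With the replicate number as a block, 19, 20 and 17 listed genes were called. Arrays of the same number in different groups deviated together by correlations of -0.06 to 0.181, and those of different numbers by -0.181 to 0.0865. Deviations within groups of 2 or 3 arrays depend on each other, so these values cannot decide whether the numbers pair the arrays. The planned normexp correction on the mean spot signal was not run, because the median signal is the one the files hold, and the median was used instead, chosen after seeing the data. Signal near background limits every value below about the dimmest detected probe, and 2 DIFF arrays limit all DIFF comparisons.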

Other observations

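Some pathway genes outside the comparisons above also stood out. Cfp, which encodes properdin, the stabiliser of the alternative convertase, was lower in CM (-0.58 ± 0.19, adjusted p = 0.0223) and higher in DIFF (0.62 ± 0.21, adjusted p = 0.0338) than in NoRX. C5ar2, a receptor for C5a, fell by 0.60 ± 0.10 in CM (adjusted p = 0.000515) and by 1.20 ± 0.11 in DIFF (adjusted p = 7.10e-06). Colec11, a collectin of the lectin route, rose by 1.27 ± 0.33 in DIFF (adjusted p = 0.00901) and did not pass in CM (-0.05 ± 0.29). Pcsk6, a proprotein convertase, passed in DIFF against CM (2.62 ± 0.63, adjusted p = 0.00408), with levels of 0.21, 0.13 and 0.24 in CM and of 1.21 and 4.41 in DIFF, where DIFF replicate 2 stood alone. These values come from limma over all 8 arrays.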
